A study of Homo sapiens with 20 samples.

Results

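The nuclear genes for the subunits of the mitochondrial respiratory chain, complexes I to V, were followed through the RNA of OVCAR8 tumors. Members were chosen by gene symbol alone. The symbols were NDUFA, NDUFB, NDUFC, NDUFS or NDUFV with a number for complex I, SDHA to SDHD for complex II, UQCR with any ending for complex III, COX5A to COX8C and their like for complex IV, and ATP5F1, ATP5M or ATP5P with any ending for complex V. This gave 79 of the 24196 genes of the table, with 37 in complex I, 4 in complex II, 9 in complex III, 12 in complex IV and 17 in complex V. NDUFA4 stands in complex I by its symbol, although its protein is known as a subunit of cytochrome c oxidase, which is complex IV. COX8C matched the symbols but was not among the genes of the table.

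OVCAR8 is a human ovarian cancer cell line, and the cells carried a non-targeting guide and luciferase (OVCAR8-sgNC-luc). NSG mice aged 6 weeks carried them as orthotopic grafts, placed in the fat pad of the ovary. A group of mice received PBS and the other received sodium gluconate at 1 mg/kg, both i.p. and weekly over 35 days, and 4 tumors of each group were sequenced as polyA RNA. The labels describe the 8 samples as tumor replicates, while the text of the study speaks of treated cells for this RNA, and the labels were followed here. The table names the libraries C1 to C4 and T1 to T4, and the letters were taken to mean PBS (C) and gluconate (T), with the numbers used only as names. NSG mice lack most lymphoid cells, which limits the host cells such a tumor can hold. Gluconate is a known modulator of TMEM87A, the membrane protein studied in the series together with its partner CHP1. The other 12 samples of the series, OVCAR8 cells with a knockout and their controls, were not analysed here.

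The respiratory chain passes electrons from NADH through complex I and from succinate through complex II to ubiquinone, then through complex III and cytochrome c to complex IV, where oxygen is reduced. Complexes I, III and IV pump protons across the inner membrane, and complex V, the ATP synthase, uses their return flow to make ATP. Most subunits are encoded in the nucleus and imported, while a small set of hydrophobic core subunits is encoded in mitochondrial DNA (mtDNA), so both genomes have to supply each complex except complex II. Tumor cells, ovarian cancer cells among them, are known to use this chain to varying degrees next to glycolysis.

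Library C4 stands apart from the other 7 libraries and is therefore treated separately throughout. Its FPKM values (fragments per kilobase of gene, scaled to the fragments of the library) rest on 3953206 fragments, against 39325749 to 46551535 in the other libraries, which is 9.95 to 11.8 times fewer. The tested subunit genes still had a median of 282 fragments in C4, from 4 in ATP5F1E upward apart from COX7A1 with 0. Intervals given for C4 are 95% Poisson intervals of its fragments, and they and the floors of 3 fragments cover counting error only. Fold changes between the groups are given with all 8 libraries and without C4.

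Several markers of the labelled cell type were present in all libraries, and others were nearly absent. KRT8, a keratin of simple epithelium, had the highest mean of the 10 epithelial markers, 846 FPKM, and PAX8, a transcription factor of Müllerian epithelium, stood at 41.1 ± 7.77 FPKM in PBS and 44.4 ± 2.42 FPKM in gluconate tumors (SD, n = 4). KRT19, MUC16 and CDH1 were at 0 in C4 and low throughout, at most 0.0357, 0.00168 and 0.159 FPKM, with KRT19 also at 0 in T2 to T4 and MUC16 in C1, C3 and T2 to T4. Of these 10 markers 7 were tested, at a median log2 fold change of 0.06 (-0.14 without C4). KRT7, a further keratin, alone had an unadjusted p under 0.05 in limma, with C4 and without it, and was higher in gluconate tumors by 0.73 and 0.48. Its adjusted p (limma, Benjamini-Hochberg) was 0.740 and 0.802. Of all genes tested, 3.13% were higher at the unadjusted mark, and 2.83% without C4. With C4, 4 of the 7 lay above 0 and 3 below it, and without C4 3 and 4. Those below with C4 were KRT8 (-0.20, and -0.21 without C4), KRT18 (-0.33 and -0.31) and WT1 (-0.67 and -0.14). The summed epithelial markers were 1795, 2150, 2391 and 1943 FPKM in C1 to C4 and 2000, 1667, 1863 and 2154 FPKM in T1 to T4. The groups overlapped in this sum, which KRT8 and KRT18 dominate, and C4 lay inside the range of the others. Single markers differed more in C4: PAX8 (32.4 FPKM), EPCAM (10.3), KRT7 (124) and CD24 (78.5) were below all other libraries and WT1 (6.58, against 1.07 to 1.82) above them, with a median log2 ratio of -0.44 over the tested markers to the median of the others. The table lists human genes, and how fragments of mouse cells were treated is not given in the sources used here, so markers of other cell types do not measure the mouse host.

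Most subunit genes belonged to the most abundant RNAs of these tumors. Mean FPKM over the 8 libraries had a median of 70.2 over the 77 tested members, against 6.64 over all 12486 genes tested, and 49 members were at or above 48.8 FPKM, the level that the most abundant 10% of all tested genes reached. Among complex I genes the order ran from NDUFB9, an accessory subunit of the membrane arm, with 515 FPKM, down to NDUFV3, an accessory subunit of the NADH-oxidising module, with 3.78 FPKM. SDHD, a membrane anchor of succinate dehydrogenase, led complex II with 113 FPKM, and SDHC, the other anchor, was lowest with 3.39 FPKM. In complex III UQCRH, the hinge protein that binds cytochrome c1, had 404 FPKM and UQCRFS1, the Rieske iron-sulfur protein, 19.7 FPKM. COX6A1, the widely expressed form of subunit 6A, led complex IV with 421 FPKM, while the muscle form COX7A1 was lowest of the tested genes with 1.09 FPKM, COX6B2 (0.260 FPKM) and COX6A2 (0.163 FPKM) lying under the minimum. Complex V ranged from 493 FPKM for ATP5F1B, the catalytic beta subunit, to 0.799 FPKM for ATP5F1E, the epsilon subunit.

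**Figure D1:**
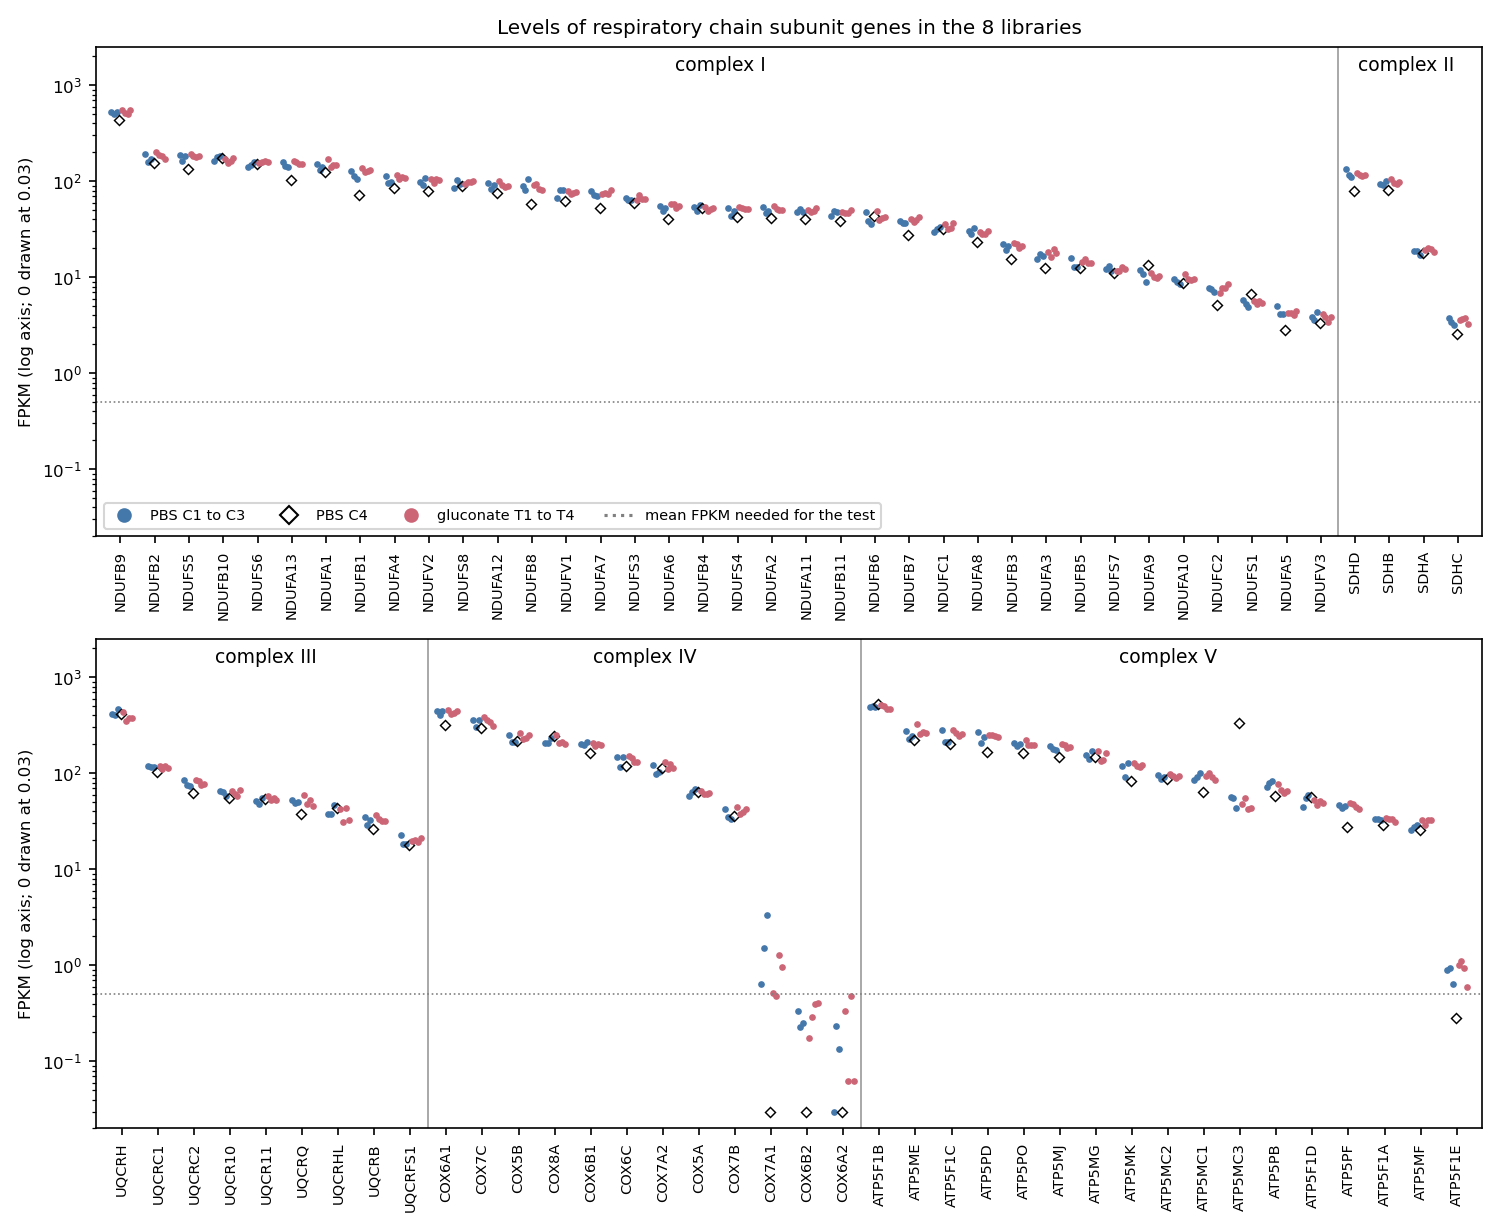
FPKM (log axis) of the subunit genes, 1 of them not drawn, in the 8 libraries, by complex and in the order of the mean, with PBS C1 to C3 in blue, PBS C4 as open diamonds, gluconate in red and the mean FPKM of 0.5 needed for the test as a dotted line. Levels run from 515 FPKM for NDUFB9 to values near or at 0 for COX7A1, COX6B2 and COX6A2, and ATP5MC3 in C4 (337 FPKM) lies far above its other points.

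Levels of different genes depend on the gene length behind the FPKM values. For 22 members this length was more than 2 times that of the principal transcript in GENCODE 29. ATP5F1E was scaled by 3610 bases where its principal transcript has 697, and with the shorter length its mean would be 4.14 FPKM, still the lowest of complex V. In complex III the lowest place passed from UQCRFS1 to UQCRHL, at 4.99 FPKM, since UQCRHL was scaled by 276 bases against 2180 in its principal transcript. UQCRHL is a near-identical copy of UQCRH, so fragments of UQCRH may have been counted in it and its level is uncertain. Other subunit genes also have processed copies in the human genome, and how the counting treated them is not given in the sources used here. Among the tested genes, the other ends of the order kept their genes with the principal length. COX7A1 would then be at 0.486 FPKM, under the minimum of 0.5, and COX6B2, not tested, at 1.14 FPKM, over it.

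Between libraries other than C4, subunit genes varied little. The coefficient of variation over these 7 libraries had a median of 6.82% over the tested members and 9.74% over all genes tested. UQCRC1, a core protein of complex III, was the steadiest member at 2.27%, with 118, 115 and 116 FPKM in C1 to C3 and 118, 112, 118 and 113 FPKM in T1 to T4. COX7A1 was the most variable at 80.0%, on few fragments. Members were more abundant than most genes. Without C4 the standard error (SE) of the log2 fold change had a median of 0.08 over the members and 0.10 over all genes. Over the most abundant 10% of genes it was also 0.08, so by this measure the members were no steadier than those. Of the libraries, T1 had the highest value for 33 of the 77 members (42.9%), whereas it was highest for 4.60% of all genes tested. C3 followed with 15 members (19.5%, against 19.1% of all genes).

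Members lie on 22 chromosomes among the 78 that matched RefSeq by symbol (NDUFA4 did not), with 12 genes on chromosome 19, 3 on chromosome X and none on mtDNA. Subunit promoters are known to carry sites for NRF1 (nuclear respiratory factor), for ETS factors such as GABP and for YY1, so their letters were searched in the RefSeq promoter windows of GRCh38.p14, 250 bases before to 50 after each start. For 64 members there were 76 windows, and a match on either strand was counted. GCGCATGC (NRF1) was in 19.7% of these windows, in 3.05% of all 35116 windows and in 5.01% of those of tested genes. CCGGAAG (ETS) was in 27.6%, against 10.3% and 17.4%, and AAGATGGC (YY1) in 17.1%, against 2.89% and 4.88%. The last letters of CCGGAAG can overlap the first of AAGATGGC. Any of these was in 50% of the member windows, against 14.9% and 24.7%, and reached 36 members. GGGCGG (Sp1) was in 61.8%, against 45.0% and 66.8%, and TATAAA in 9.21%, against 11.5% and 6.00%. A match describes letters only and shows no binding. Members without an entry in the promoter table include ATP5F1B, ATP5F1D, ATP5MC3, ATP5MF, COX6C, COX7A1, NDUFA4, NDUFB5, NDUFB9, NDUFC2, NDUFS5, SDHC, UQCRB and UQCRHL.

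A stretch upstream of the start and outside any GENCODE 29 exon is shown for 1 gene of each complex. It is the gene with the most NRF1, ETS and YY1 letters in its stretch, and none of the stretches shown holds the YY1 letters. Sequences are 5′ to 3′ on the strand of the gene, on GRCh38.p14 (RefSeq), and capitals mark the searched motifs or their reverse complements (GCATGCGC for NRF1, CTTCCGG for ETS, CCGCCC for Sp1). NDUFB7 (complex I, minus strand) is shown at chr19:14572067-14572186, SDHB (complex II, minus strand) at chr1:17054171-17054282, UQCR11 (complex III, minus strand) at chr19:1605491-1605610, COX5B (complex IV, plus strand) at chr2:97645920-97646039 and ATP5PD (complex V, minus strand) at chr17:75046986-75047105. The ETS letters of NDUFB7 begin 24 bases before its start, those of COX5B 37 bases and those of UQCR11 117 and 97 bases before it. The NRF1 letters begin 200 bases before the start of SDHB and 136 bases before that of COX5B.
NDUFB7: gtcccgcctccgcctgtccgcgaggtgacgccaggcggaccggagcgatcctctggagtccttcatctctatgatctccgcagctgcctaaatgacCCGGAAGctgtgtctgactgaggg
SDHB: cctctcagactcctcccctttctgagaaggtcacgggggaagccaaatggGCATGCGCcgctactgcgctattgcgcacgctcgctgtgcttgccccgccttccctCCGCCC
UQCR11: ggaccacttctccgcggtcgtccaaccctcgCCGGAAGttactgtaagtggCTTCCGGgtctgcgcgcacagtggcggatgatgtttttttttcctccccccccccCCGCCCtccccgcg
COX5B: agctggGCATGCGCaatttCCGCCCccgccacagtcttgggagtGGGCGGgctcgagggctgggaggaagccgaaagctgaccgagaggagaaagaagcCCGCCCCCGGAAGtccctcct
ATP5PD: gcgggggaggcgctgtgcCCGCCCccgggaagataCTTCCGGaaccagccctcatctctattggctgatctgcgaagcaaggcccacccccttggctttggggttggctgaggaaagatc

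No subunit gene passed the test between gluconate and PBS tumors after adjustment over all genes. With limma and Benjamini-Hochberg adjustment, 0 of 77 members and 0 of 12486 genes (0%) had an adjusted p under 0.05, and the smallest adjusted p of a member was 0.740 with C4 and 0.802 without it. At an unadjusted p under 0.05, the limma fit gave 391 genes that were higher with gluconate and 186 that were lower. On recovered fragments voom gave 333 and 254, and 0 genes after adjustment. The split depended on the scaling, with 368 higher and 350 lower with median ratios and 430 and 353 with quantile normalization. It also depended on C4, without which the FPKM values gave 353 and 419. COX6A2 and COX6B2 did not reach the mean of 0.5 FPKM needed for the test.

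Among the members only ATP5MF, 1 of 77 (1.30%), was higher at an unadjusted p under 0.05, where 3.13% of all genes were, and 0 members were lower, where 1.49% were. Without C4, ATP5MF and NDUFB1 were higher, 2 of 77 (2.60%), against 2.83% of all genes, and again 0 were lower, against 3.36%. ATP5MF was also the only member whose groups did not overlap, with C4 and without it. Groups did not overlap in the higher direction in 2.08% of all genes and in the lower in 1.41%, and without C4 in 2.41% and 3.65%. In these fits with all libraries and without C4, the shares of members past either mark lay under those of all genes. The count rested on single libraries, and without others the order of the shares could turn. Without C1, 15 members were higher (19.5%, against 7.44% of all genes) and 1 was lower (1.30%, against 2.28%). Without C2 and without C3, 2 members were higher (2.60%, against 5.33% and 2.46%). Without T1, 1 was higher (1.30%, against 2.58%) and 1 lower (1.30%, against 1.07%). In bulk tumors, fewer cells of a type and less RNA per cell cannot be told apart.

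The fold changes of the members were small and mostly positive. Their log2 fold changes, taken on the log2(FPKM + 0.1) scale that understates low genes, had a median of 0.10, with 63 of 77 above 0, beside 0.07 over all genes tested, with 8294 of 12486 above 0. Without C4 the median was 0.04, with 55 above 0, beside -0.00 over all genes, with 6103 above 0. With median ratio scaling it was 0.04 beside 0.00, and with quantile normalization 0.07 beside 0.01. By complex the medians were 0.10 for I, 0.10 for II, 0.07 for III, 0.10 for IV and 0.13 for V, and without C4 0.05, 0.05, 0.02, 0.04 and 0.03. The median SE was 0.09 over the members, 0.15 over all genes and 0.09 over the most abundant 10% of them, and without C4 it was 0.08, 0.10 and 0.08. For 74 of the 77 members the 95% interval of the change lay within 2-fold in either direction, the exceptions being COX7A1, ATP5F1E and ATP5MC3. Without C4 it did so for 76, all but COX7A1, and within 1.5-fold for 75.

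**Figure D2:**
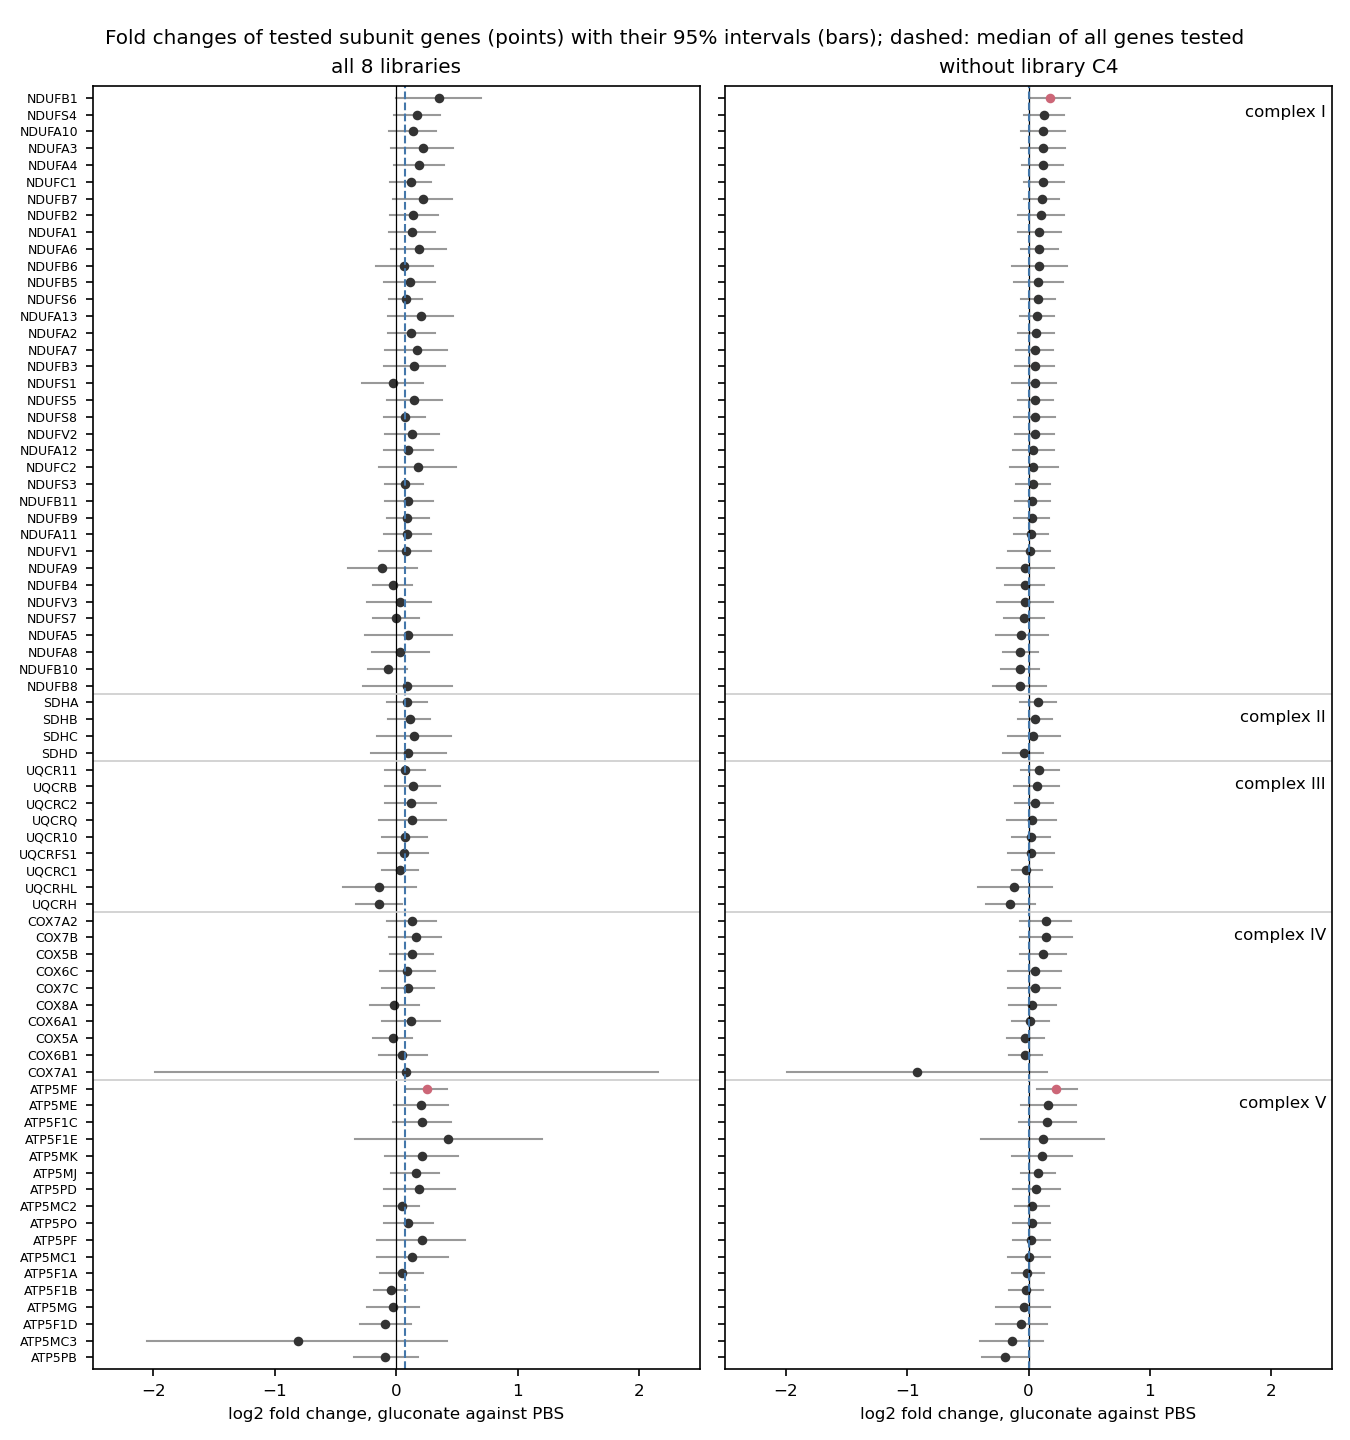
Log2 fold change of gluconate against PBS for the tested subunit genes (points, 1 gene not drawn) with 95% intervals (bars), by complex, with all 8 libraries on the left and without C4 on the right; red points have an unadjusted p under 0.05 and the dashed line is the median of all genes tested (0.07 and -0.00). Most points lie above 0, as 63 of all 77 members do with C4 and 55 without it, and the lowest are ATP5MC3 (-0.81) on the left and COX7A1 (-0.92) on the right.

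Complex I takes electrons from NADH, and its nuclear core subunits bind the flavin and the iron-sulfur clusters. Among these core genes, named here for their role, log2 fold changes were -0.03 for NDUFS1, 0.13 for NDUFV2 and 0.08 for NDUFV1, which binds the flavin. Without C4 they were 0.05, 0.05 and 0.01, so that NDUFS1 turned sign. NDUFB1, a small accessory subunit of the membrane arm, had the largest positive value of the complex. It read 128, 114, 105 and 71.0 FPKM in C1 to C4 and 136, 126, 128 and 132 FPKM in T1 to T4. C4 was lowest, and C1 lay within the gluconate range, so the groups overlapped. The log2 fold change was 0.35 ± 0.16 (SE), and without C4 0.18 ± 0.07, where the unadjusted limma p was under 0.05. A two-sided exact permutation test gave p = 0.0571 in both, and the adjusted p of limma and Benjamini-Hochberg was 0.740 and 0.802. The lowest value with all libraries belonged to NDUFA9, an accessory subunit beside the quinone site, with 12.0, 10.8, 8.86 and 13.4 FPKM in PBS and 11.2, 9.97, 9.70 and 10.3 FPKM in gluconate tumors. The gluconate libraries fell inside the PBS range, and the difference of -0.12 ± 0.13 became -0.03 without C4. NDUFB9, the most abundant member, had 499 ± 43.4 FPKM in PBS and 530.1 ± 25.2 FPKM in gluconate tumors (SD, n = 4), and 520.0 ± 12.7 FPKM in C1 to C3. NDUFV3 had 3.75 ± 0.427 and 3.81 ± 0.309 FPKM.

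Complex II, succinate dehydrogenase, is the 1 complex without a subunit from mtDNA and is also part of the TCA cycle. SDHA, the flavoprotein that oxidises succinate, read 18.8, 18.7, 17.1 and 17.9 FPKM in PBS and 19.0, 20.1, 19.5 and 18.3 FPKM in gluconate tumors. SDHB, the iron-sulfur subunit, read 93.5, 91.7, 99.4 and 81.0 FPKM, then 105, 96.3, 94.3 and 97.9 FPKM. The groups overlapped in both. SDHC read 3.76, 3.39, 3.21 and 2.54 FPKM, then 3.55, 3.70, 3.75 and 3.22 FPKM, and SDHD 134, 117, 109.8 and 79.7 FPKM, then 122, 115, 113 and 115 FPKM. In both membrane anchors C4 was the lowest library and C1 the highest. Log2 fold changes were 0.09 for SDHA, 0.11 for SDHB, 0.15 for SDHC and 0.10 for SDHD, each under 2 times its SE (0.07, 0.08, 0.14 and 0.14). Without C4 they were 0.08, 0.05, 0.04 and -0.04, so that SDHD turned sign.

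Complex III passes electrons from ubiquinol to cytochrome c. UQCRB, a small subunit at the quinone site, had its largest positive value with all libraries, 0.14 ± 0.10 (SE), with 34.9, 28.7, 32.3 and 26.3 FPKM in PBS and 36.6, 33.6, 32.0 and 31.6 FPKM in gluconate tumors. The groups overlapped, and C4 was lowest. Without it UQCRB had 0.07, and UQCR11, a further small subunit, was highest at 0.09. UQCRH and its copy UQCRHL had the largest negative values, both -0.14 (-0.15 and -0.12 without C4). UQCRH read 413, 401, 465 and 416 FPKM in PBS and 438, 352, 376 and 374 FPKM in gluconate tumors. T2, T3 and T4 lay below all PBS libraries, whereas T1 lay inside their range. An exact permutation test gave p = 0.114 with C4 and p = 0.171 without it. With quantile normalization, and also without T1, UQCRH was the 1 member lower at an unadjusted p under 0.05. UQCRHL read 37.3, 37.3, 47.2 and 43.1 FPKM, then 42.6, 31.2, 43.9 and 33.0 FPKM, with T2 and T4 lowest. UQCRFS1 had 19.3 ± 2.24 and 20.0 ± 0.806 FPKM (SD, n = 4).

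Complex IV, cytochrome c oxidase, has its catalytic core encoded in mtDNA and nuclear subunits around it. COX7B had the largest positive log2 fold change with all libraries, 0.16 ± 0.10 (SE), and 0.14 without C4. Its values were 42.7, 35.1, 33.4 and 35.5 FPKM in PBS and 44.8, 37.4, 39.1 and 42.0 FPKM in gluconate tumors. C1 reached into the gluconate range, and the other PBS libraries lay below it. COX5A, which faces the matrix, had the most negative one with all libraries, -0.03 ± 0.07 (also -0.03 without C4, where COX7A1 was lower), from 64.0 ± 4.31 and 62.6 ± 2.27 FPKM (SD, n = 4). COX6A1 read 441, 408, 450.1 and 322 FPKM, then 459, 414, 425 and 450.1 FPKM. Here C4 alone was low, and the log2 fold change of 0.12 became 0.01 without it.

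Some complex IV subunits have forms restricted to certain tissues, and these were low in the OVCAR8 tumors. COX6A2, the heart and skeletal muscle form of subunit 6A, read 0, 0.231, 0.135 and 0 FPKM in PBS and 0.333, 0.0628, 0.478 and 0.0629 FPKM in gluconate tumors. COX6B2, a testis form, read 0.334, 0.225, 0.251 and 0 FPKM, then 0.177, 0.290, 0.400 and 0.401 FPKM. COX7A1, the heart and skeletal muscle form of subunit 7A, read 0.645, 1.52, 3.32 and 0 FPKM, then 0.510, 0.481, 1.27 and 0.963 FPKM. C3 was highest for COX7A1, the groups overlapped for each of these genes, and all had 0 fragments in C4. At that depth 3 fragments would be 2.04 FPKM for COX6A2, 0.362 FPKM for COX6B2 and 2.23 FPKM for COX7A1. Levels under these would on average give fewer than 3 fragments in C4, so its 0 does not show that these genes were absent. For COX7A1 the log2 fold change was 0.08 with C4 and -0.92 without it (exact permutation p = 0.971 and p = 0.200). Muscle markers stood beside them. Of these 10 markers 3 were tested, with ACTC1 most abundant at 33.7 FPKM, and their sums were 68.3, 59.0, 51.3 and 15.8 FPKM in PBS and 73.1, 54.6, 84.0 and 93.9 FPKM in gluconate tumors. TNNT2 and TNNC1 were higher at an unadjusted p under 0.05 with all libraries (log2 fold changes of 1.08 and 0.86). Without C4 only TNNT2 was (0.66, where TNNC1 had 0.54), and none was lower in either fit. Of all genes tested, 3.13% were higher and 1.49% lower at that mark, and without C4 2.83% and 3.36%. The median of the 3 tested markers was 0.86 (0.54 without C4), and in C4 their median log2 ratio to the other libraries was -2.46. ACTA1, MYH7, TNNT3, CKM and MB were at 0 in C4 and at most 0.282 FPKM in the others. Whether muscle cells had a part in the levels of COX7A1 and COX6A2 was not tested.

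Complex V joins a catalytic head (ATP5F1A to ATP5F1E), a rotating ring of c subunits (ATP5MC1 to ATP5MC3), a peripheral stalk (ATP5PB, ATP5PD, ATP5PF and ATP5PO) and small membrane subunits. ATP5MF, the small membrane subunit f, is the member that came nearest to a difference. It read 25.4, 27.3, 28.7 and 25.7 FPKM in PBS and 33.0, 29.1, 32.7 and 32.8 FPKM in gluconate tumors. All gluconate libraries lay above all PBS libraries, by a narrow gap between C3 and T2. In C4 the gene had 45 fragments, and the Poisson interval of 18.7 to 34.4 FPKM covers the gluconate range, so the place of C4 is uncertain. Means were 26.8 ± 1.52 and 31.9 ± 1.90 FPKM (SD, n = 4). The log2 fold change was 0.25, with a 95% interval from 0.08 to 0.42, and a two-sided exact permutation test gave p = 0.0286, the smallest value that 4 against 4 libraries allow. In limma its unadjusted p was under 0.05, and its adjusted p (Benjamini-Hochberg) was 0.740. Without C4 the log2 fold change was 0.23 and the exact permutation p was 0.0571. Median ratio scaling ended this: ATP5MF no longer had an unadjusted p under 0.05, and NDUFB1 alone among the members did.

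Other small membrane subunits differed less. ATP5ME, subunit e, had a log2 fold change of 0.20 ± 0.10 and ATP5MG, subunit g, of -0.03 ± 0.10 (SE), and without C4 of 0.16 and -0.04. In the head, ATP5F1B read 493, 498, 489 and 521 FPKM in PBS and 509, 497, 469.9 and 465 FPKM in gluconate tumors. T3 and T4 were lowest and C4 highest, and the difference was -0.04 ± 0.06 (-0.02 without C4). ATP5F1E had the largest positive value of the complex with all libraries, 0.43 ± 0.34, on low levels of 0.899, 0.934, 0.632 and 0.280 FPKM in PBS and 1.01, 1.11, 0.937 and 0.590 FPKM in gluconate tumors. C4 was lowest on only 4 fragments, T4 was the next, and without C4 the value was 0.12 ± 0.23. In the peripheral stalk, ATP5PB, subunit b, was lower without C4 by -0.19 (exact permutation p = 0.114), from 71.4, 78.4 and 82.2 FPKM in C1 to C3 and 77.0, 67.6, 61.7 and 65.4 FPKM in T1 to T4. T1 lay inside the PBS range and the other gluconate libraries below it. With C4, at 57.8 FPKM, the difference was -0.09.

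Library C4 lay below the other libraries for most subunit genes in FPKM. Its log2 ratio to the median of the other 7 libraries had a median of -0.26 over the tested members, -0.28 over all genes tested and -0.10 over the 1249 most abundant ones. By complex the medians were -0.28, -0.37, -0.17, -0.14 and -0.29 from I to V. C4 was below the lowest of the others in 53 of 77 members (68.8%), where 58.0% of all genes were, and in 29 of them the upper bound of its Poisson interval was below too (37.7%, against 27.5% of all genes). Above the highest of the others were 4 members (5.19%), NDUFA9, NDUFS1, ATP5F1B and ATP5MC3, where 13.7% of all genes were, and the lower bound was also above in NDUFA9, NDUFS1 and ATP5MC3 (3.90%, against 7.49%). These counts depend on the scaling: with median ratios, where C4 has a factor of 0.843 against 1.00 to 1.05 for the others, 20 members were below (26.0%, against 33.0% of all genes) and 23 above (29.9%, against 31.9%). With quantile normalization they were 46 (59.7%, against 35.1%) and 3 (3.90%, against 25.4%).

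Past 2-fold, C4 differed in few members. ATP5MC3 was above (1 of 77, 1.30%, against 3.84% of all genes), and the listed values of COX7A1 with 0 fragments and ATP5F1E with 4 were below (2 of 77, 2.60%, against 11.2%). Neither is settled at this depth. The upper Poisson bound of COX7A1 in C4, 2.74 FPKM, was above its median of 0.963 FPKM in the others, and the interval of ATP5F1E, 0.0764 to 0.718 FPKM, overlapped the range of the others, 0.590 to 1.11 FPKM. Fibroblast markers also differed in C4. Of these 9 markers 5 were tested, none with an unadjusted p under 0.05, at a median log2 fold change of 0.49 and of 0.20 without C4. In C4 the tested ones had a median log2 ratio of -1.41 to the others. The sums of all 9 were 129.7, 185, 149 and 45.3 FPKM in PBS and 165, 177, 192 and 186 FPKM in gluconate tumors. COL1A1, most abundant at 145 FPKM, made up most of these sums, with 41.4 FPKM in C4 and 121 to 182 FPKM in the others. COL1A2 and PDGFRA were at 0 in C4 but near 0 in the others too, at most 0.0678 and 0.0136 FPKM. DCN and THY1 were also near 0, at most 0.0388 and 0.125 FPKM, and in both C4 lay inside the range of the others. The part of depth or of stromal cells in the low subunit values of C4 was not tested.

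**Figure D3:**
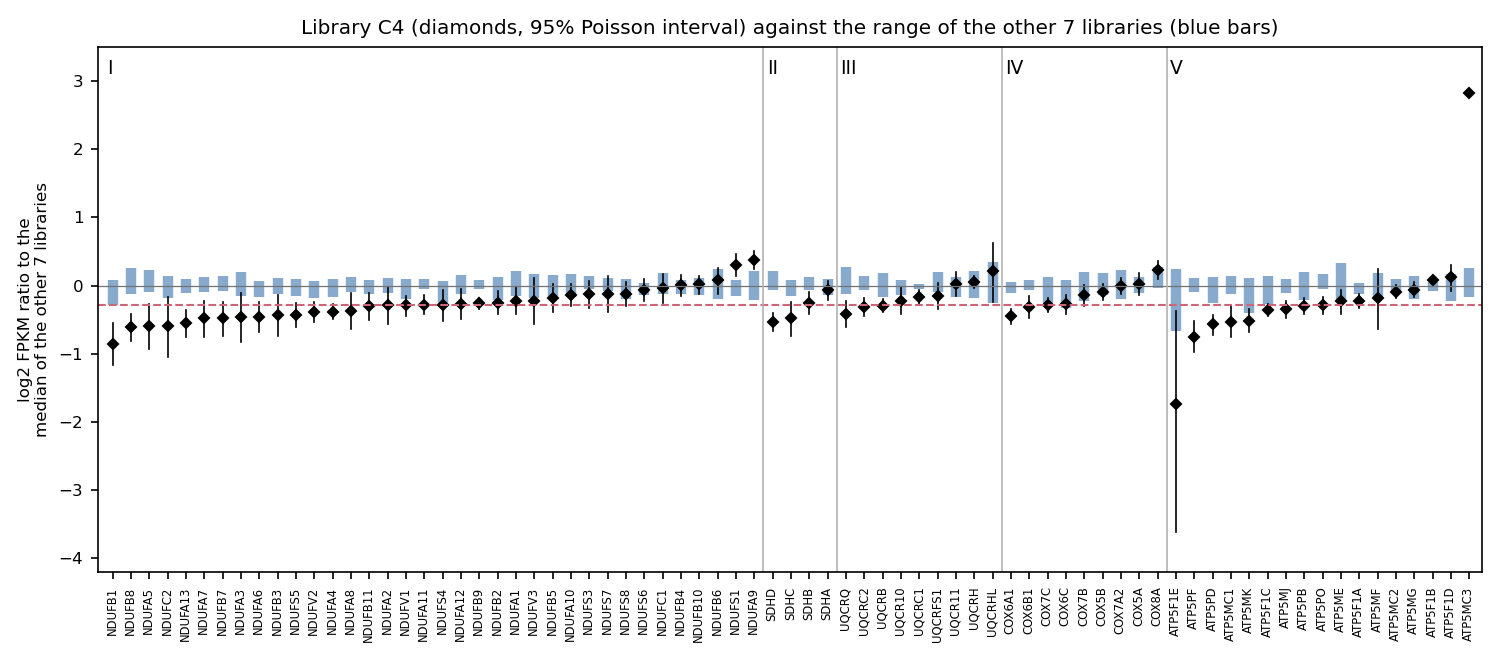
Log2 ratio of library C4 to the median of the other 7 libraries for the tested subunit genes (diamonds, with 95% Poisson intervals), beside the range of these 7 (blue bars), by complex, with the median of all genes tested (-0.28) as a dashed red line; COX7A1, at 0 in C4, and 1 other gene have no point. Most diamonds lie below their blue bars, as C4 does in 53 of all 77 members, with ATP5F1E lowest at -1.74 and NDUFB1 next at -0.85, and ATP5MC3 stands highest at 2.82.

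Among the tested subunit genes, ATP5MC3 had the highest ratio of C4 to the median of the other 7 libraries. It encodes the c subunit of the rotating ring, as do ATP5MC1 and ATP5MC2, and the 3 precursors give the same mature protein. ATP5MC3 read 56.7, 55.5, 43.6 and 337 FPKM in C1 to C4 and 47.5, 55.3, 42.2 and 43.4 FPKM in T1 to T4. C4 was far above, and the other libraries of both groups shared a range of 42.2 to 56.7 FPKM. The value in C4 rested on 4567 fragments, with an interval of 327 to 347 FPKM, and its log2 ratio to the others was 2.82. Among all genes tested, 73 had a ratio in C4 at or above this, and among the 1249 most abundant genes ATP5MC3 was the 1 that did. Those genes were drawn by the mean over all 8 libraries, C4 included. ATP5MC3 had a mean of 85.1 FPKM, while its median in the other 7 libraries, 47.5 FPKM, was near the cutoff of 48.8 FPKM. It gave PBS a mean of 123 ± 143 FPKM against 47.1 ± 5.92 FPKM in gluconate tumors (SD, n = 4), and the log2 fold change of -0.81 ± 0.55 (SE) became -0.14 ± 0.12 without C4. The exact permutation test gave p = 0.143 and p = 0.257.

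ATP5MC1 and ATP5MC2 did not share the high value of ATP5MC3 in C4. ATP5MC1 read 84.5, 92.0, 101 and 63.8 FPKM in PBS and 93.3, 100, 90.8 and 85.5 FPKM in gluconate tumors, with C4 lowest. ATP5MC2 read 95.8, 87.9, 91.4 and 87.2 FPKM, then 98.9, 92.8, 88.4 and 94.7 FPKM, with C4 just under the range of the others. ATP5MC3 thus made up 69.0% of the summed FPKM of the c subunit genes in C4 and 18.5% to 23.9% in the other libraries, and the sum was 488 FPKM against 221 to 248 FPKM. These values rest on lengths of 2850 bases for ATP5MC2 and 3430 for ATP5MC3, where the principal transcripts have 745 and 795. With the principal lengths its share would be 78.3% in C4 and 29.1% to 35.5% in the others, and the sum 1856 FPKM against 618 to 702 FPKM. Neither gene differed between the groups beyond its error, at log2 fold changes of 0.13 ± 0.13 and 0.05 ± 0.06, and of 0.00 and 0.03 without C4.

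**Figure D4:**
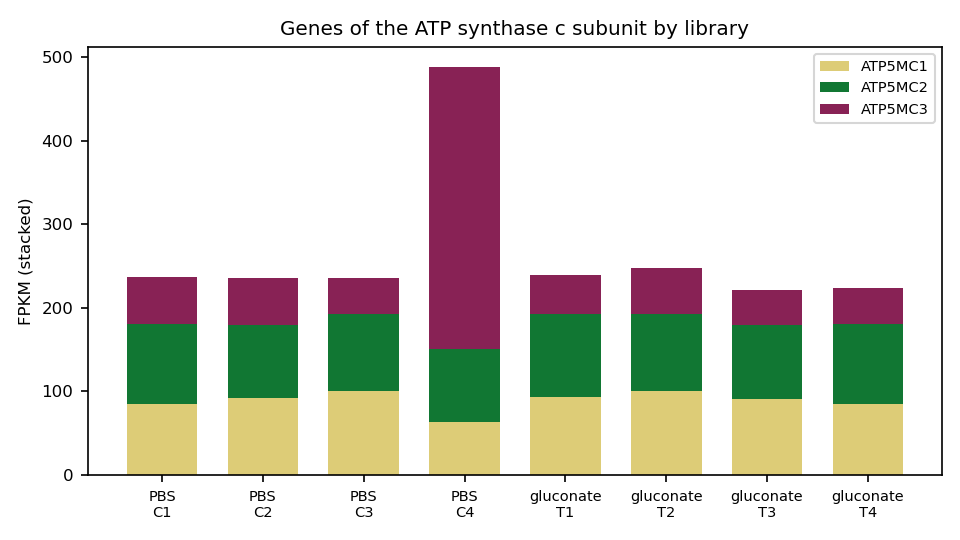
FPKM of the genes of the ATP synthase c subunit, ATP5MC1, ATP5MC2 and ATP5MC3, stacked for each of the 8 libraries. C4 reaches 488 FPKM, of which ATP5MC3 makes 69.0%, while the other libraries reach 221 to 248 FPKM, all on the gene lengths of the table.

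Summed over all 79 members, which weighs the abundant genes most, the libraries held 8343, 7687, 8196 and 7315 FPKM in C1 to C4 and 8793, 8070, 8031 and 8125 FPKM in T1 to T4. C4 was lowest, T1 highest, and C1 and C3 lay within the gluconate range. Group means were 7885 ± 473 and 8255 ± 361 FPKM (SD, n = 4), and 8075 ± 344 FPKM for PBS without C4. Complex I summed to 2749 ± 239 and 2960 ± 84.9 FPKM, and PBS without C4 to 2863 ± 84.9 FPKM. Complex III was the 1 complex with the lower mean in gluconate tumors, at 861 ± 45.1 and 841 ± 57.6 FPKM (877 ± 40.5 FPKM for PBS without C4). For complex V, C4 lay inside the range of the others, at 2336 FPKM against 2218 to 2577 FPKM, but without ATP5MC3 it was below them, at 1999 FPKM against 2163 to 2530 FPKM. As a share of the library fragments by which FPKM is scaled, all members together made 0.832% to 0.930%, with C4, at 0.864%, inside this range through ATP5MC3. Without that gene C4 was lowest, at 0.749% against 0.813% to 0.913%.

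**Figure D5:**
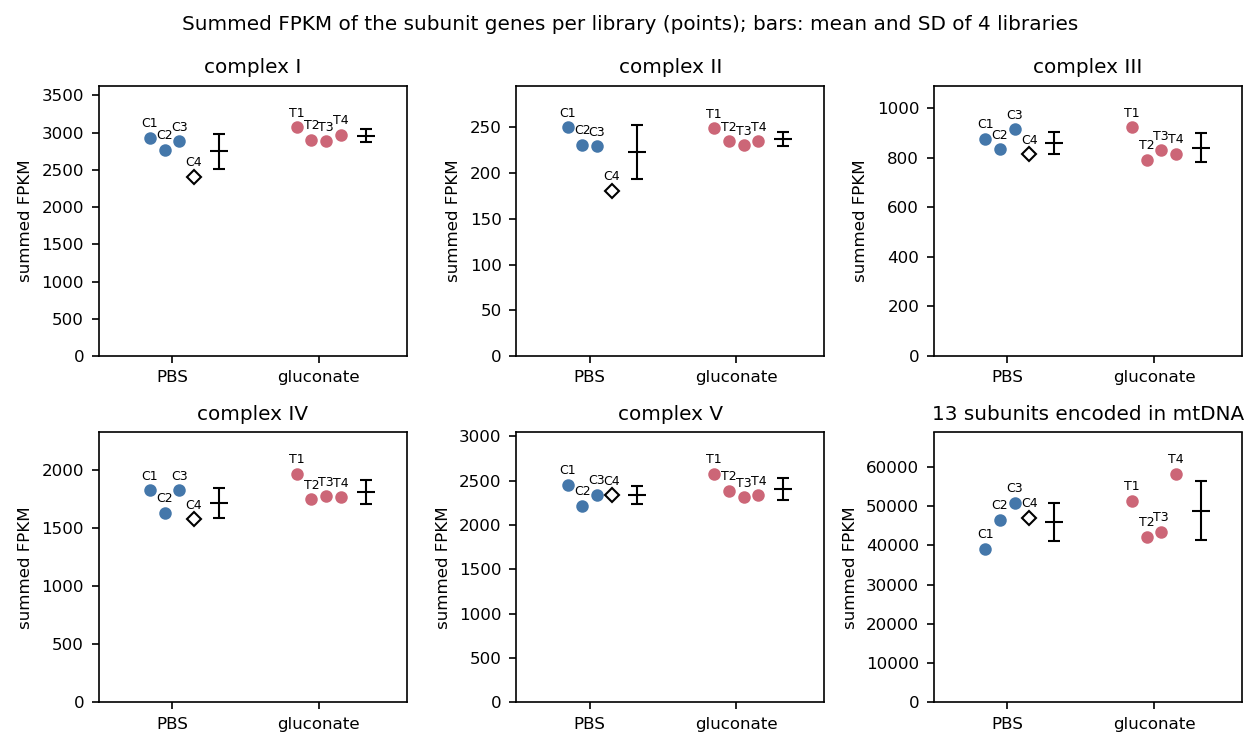
Summed FPKM of the subunit genes of each complex and of the 13 subunits encoded in mtDNA, per library (points; PBS in blue, C4 as open diamonds, gluconate in red), with the mean and SD of the 4 libraries of a group as bars. Groups overlap in every panel, C4 is lowest for complexes I, II and IV, T1 is highest for complexes I, III, IV and V, and T4 (58264) is highest for the mtDNA subunits.

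The 13 subunits encoded in mtDNA, partners of the nuclear members in complexes I, III, IV and V, were far more abundant, with COX1, the catalytic subunit of complex IV, at a mean of 8314 FPKM. Their sums were 39174, 46494, 50835 and 47090 FPKM in PBS and 51330, 42260, 43515 and 58264 FPKM in gluconate tumors. T4 was highest and C1 lowest, C4 lay inside the range, and the groups overlapped. With limma 0 of the 13 had an unadjusted p under 0.05, with C4 or without it, and their median log2 fold change was 0.06 (0.09 without C4). ND6, a complex I subunit from the other mtDNA strand, had the lowest p, at a log2 fold change of 0.24, and 0.10 without C4, its lowest library. Subunits and partners whose symbols fall outside the rule, such as CYC1 (cytochrome c1), CYCS (cytochrome c) and COX4I1, gave 6 tested genes of 8 with a median of 0.00 (0.01 without C4) and 0 at an unadjusted p under 0.05. COX4I1, the most abundant, stood at 158 ± 3.47 and 164 ± 5.45 FPKM, and CYCS had the lowest p, at -0.13 (-0.16 without C4). In C4 these genes had a median log2 ratio of -0.01 to the other libraries, and the mtDNA genes of 0.04.

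Assembly factors, which insert clusters, hemes and subunits into the complexes, had 53 of 54 genes tested and a median log2 fold change of 0.10 (0.01 without C4). COX16, needed for complex IV, was the 1 gene higher at an unadjusted p under 0.05, at 0.28 in limma (0.21 without C4), and 0 were lower. Without C4 UQCC2 was higher (0.23, and 0.10 with C4), and COA7, LYRM7 and UQCC1 were lower (-0.24, -0.29 and -0.23, and -0.19, -0.15 and -0.16 with C4), while COX16 no longer had an unadjusted p under 0.05. Of all genes, 3.13% were higher and 1.49% lower with C4, and 2.83% and 3.36% without it. HIGD2A was the most abundant at 128 FPKM. Transcriptional regulators of the chain had 12 of 14 genes tested, a median of -0.06 (-0.13 without C4, with 10 of 12 below 0) and 0 at an unadjusted p under 0.05. Their sums were 188, 195, 197 and 193 FPKM in PBS and 172, 186, 184 and 173 FPKM in gluconate tumors, and the groups did not overlap, by a narrow gap between C1 and T2. The sum of C4 held YY1 at 65.4 FPKM, against 31.4 to 42.4 FPKM in the other libraries. Its place above the gluconate range rested on this gene. POLRMT, the RNA polymerase of mitochondria, had their lowest p, at a log2 fold change of -0.17 (-0.16 without C4). It read 16.6, 17.9, 18.0 and 17.7 FPKM in PBS and 15.9, 15.4, 16.9 and 14.4 FPKM in gluconate tumors. C1 and T3 overlapped, and the other gluconate libraries lay below all PBS libraries. MYC was the most abundant regulator, at 44.1 FPKM.

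Lists next to the chain gave similar small values. Mitochondrial ribosomal proteins, which make the mtDNA subunits, had 77 of 78 genes tested, a median log2 fold change of 0.04 (-0.01 without C4), 0 higher and 1 lower at an unadjusted p under 0.05, which was MRPL37 at -0.22 (-0.21 without C4). Without C4 there was 1 in each direction, MRPL23 higher and MRPL37 lower. Of all genes tested, 3.13% were higher and 1.49% lower at that mark, and without C4 2.83% and 3.36%. TCA cycle enzymes, which feed NADH and succinate to the chain, had all 16 tested, a median of 0.06 (0.02 without C4) and 0 at an unadjusted p under 0.05, with CS, citrate synthase, most abundant at 120 FPKM. Enzymes that pass electrons to ubiquinone by other routes had 7 of 9 tested, a median of 0.13 (0.01 without C4) and 0 at that mark, with ETFB lowest in p, at 0.13 (0.15 without C4). Of the 8 carriers and pores for nucleotides, phosphate and protons, 1 was higher, UCP2, at 0.22 and at 0.20 without C4, and their median was 0.01 (-0.02 without C4). UCP2, a carrier of the uncoupling protein family, read 32.1, 37.6, 31.4 and 32.2 FPKM in PBS and 35.3, 37.4, 38.7 and 43.5 FPKM in gluconate tumors. C2 lay inside the gluconate range and the other PBS libraries below it.

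Apart from CD68, human genes that mark further cell types were low beside most subunit genes, which says nothing of mouse cells. Of the 6 endothelial markers 0 reached the test minimum, with sums of 0.257 FPKM in C4 and 0.454 to 0.707 FPKM in the others, PECAM1 being most abundant at 0.373 FPKM. Of 6 myeloid markers CD68 and ITGAM were tested, neither with an unadjusted p under 0.05 and at a median log2 fold change of -0.16 (-0.06 without C4), and PTPRC, CD14 and LYZ were at 0 in C4. CD68 made up 24.7 FPKM of sums between 20.8 and 28.9 FPKM. Of 7 adipocyte markers 5 were in the table (not ADIPOQ and LEP) and 0 were tested, with sums of at most 0.335 FPKM. Of 4 red blood cell markers 2 were in the table (not ALAS2 and HBA2) and 0 were tested, with at most 0.340 FPKM.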

How the data were processed

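RNA-seq (polyA, paired ends) of 8 orthotopic OVCAR8 tumors was used, 4 from PBS and 4 from gluconate mice; 12 knockout libraries were not analysed here. The authors deposited FPKM values of 24196 genes, that is, fragments scaled by gene length and library fragments. The build, GRCh38, comes from the submitters' processing notes, and the aligner and the counting are not given in the sources used here. Column letters were mapped to groups only (C to PBS, T to gluconate), with no pairing of numbers, and all columns were used.

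FPKM values were whole fragments, within 0.01, in 99.95% of cases, and the recovered fragments gave depth, 95% Poisson intervals and floors of 3 fragments. A gene needed a mean of at least 0.5 FPKM to be tested, which 12486 genes had. The test was that of limma (version 3.58.1, R 4.3.3), two-sided, with a mean-variance trend, on FPKM plus a pseudocount of 0.1 in log2, and p-values were adjusted over all these genes by the Benjamini-Hochberg method. P-values called unadjusted are from the same fit. Exact permutation tests covered the 70 arrangements of 4 against 4 libraries, and without C4 the 35 of 4 against 3. Only the main limma fit was tested on simulated data, with the depths of these libraries and a fixed dispersion. No simulated library differed in composition as C4 does. Python 3.11.15 with numpy 2.4.6, scipy 1.17.1, pandas 2.3.3 and matplotlib 3.10.9 did the rest.

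Of the members, 78 matched RefSeq (GRCh38.p14) by symbol and 79 had a principal transcript in GENCODE 29, whose lengths served as an alternative. Per complex, the genes with the highest and lowest mean and the largest log2 fold change in each direction were named, with all members at an unadjusted p under 0.05 or with groups that do not overlap, the tissue forms, the c subunit and SDH genes and those not tested. In other lists, the gene with the lowest p, those with the largest changes and the most abundant one could be named. Members named beyond this were chosen for their role or after their values were seen. The members and lists were chosen with earlier results of these data known. Lists covered subunits outside the rule, mtDNA subunits, assembly factors, transcriptional regulators, mitochondrial ribosome, TCA cycle, quinone and other electron entry, nucleotide exchange and pores, and markers of ovarian carcinoma epithelium, fibroblasts, endothelium, myeloid cells, muscle, adipocytes and red blood cells. Alternatives were pseudocounts of 1 and 0.01, no filter, a mean of at least 1 FPKM, median ratio scaling, quantile normalization, no trend, voom on fragments, a replicate block, each library left out, and other folds for C4.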

Additional observations from a re-analysis of the deposited data

Results flagged for a closer look

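In each group of 4 libraries, a value was taken up here when its gap to the nearest other library, as a share of the range of the group, passed Dixon's critical value for 4 values. This held for 11 of 170 groups. Chance flags about 1 in 20 groups, which would be 8.50. Library C4 gave 3 of them, C1 3, T1 3 and T2 2.

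In C4, ATP5MC3 was high at 337 FPKM (43.6 to 56.7 in the other PBS libraries), and ATP5F1A, the alpha subunit of the catalytic head, at 28.7 FPKM (32.9 to 33.5) and ATP5PF, a subunit of the peripheral stalk, at 27.3 FPKM (43.6 to 46.7) were low. In C1, NDUFB5, an accessory subunit of the membrane arm, was high at 15.7 FPKM (12.5 to 12.7), as were UQCRFS1 at 22.6 FPKM (17.7 to 18.5) and ATP5F1C, the gamma subunit, at 284 FPKM (202 to 214). In T1, NDUFS5 was high at 194 FPKM (180.0 to 182 in the other gluconate libraries), ATP5PO at 222 FPKM (197 to 198) and the summed FPKM of complex IV at 1969 (1751 to 1773). In T2, NDUFB5 was high at 15.3 FPKM (14.1 to 14.3), and ATP5MF was low at 29.1 FPKM (32.7 to 33.0).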

How the results depend on the processing

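In all settings tried, 0 genes had an adjusted p under 0.05 (limma or voom, Benjamini-Hochberg). The median log2 fold change of the members stayed positive, between 0.04 and 0.14. That of all genes moved too, between -0.00 and 0.10, and the members lay only 0.01 to 0.06 above it. The members higher at an unadjusted p under 0.05, 1 as reported, were 2 with a pseudocount of 1 (2.60%, against 3.41% of all genes) and ranged from 1 to 15 when each library was left out, 15 being without C1 (19.5%, against 7.44%). The members lower, 0 as reported, were 1 with quantile normalization (UQCRH; 1.30%, against 2.83%), 1 with voom without C4 (ATP5PB; 1.30%, against 3.53%) and 0 to 1 with a library left out, 1 being without C1 (against 2.28% of all genes) or T1 (UQCRH; against 1.07%). Members of C4 that were 2-fold below the others, 2 as reported, were 1 with quantile normalization (1.30%, against 3.71% of all genes) and 7 at 1.5-fold (9.09%, against 27.0%). With median ratio scaling, C4 was above the others in 23 members in place of 4 (29.9%, against 31.9%) and below them in 20 in place of 53 (26.0%, against 33.0%). The causes were not tested.

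With the column number as a replicate block, 4 members were higher at an unadjusted p under 0.05 (ATP5F1C, ATP5ME, ATP5MF and NDUFB1), 5.19% of the members against 2.43% of all genes. Libraries with the same number did not deviate together over genes (r of -0.178, 0.0836, 0.165 and -0.0575 for the numbers 1 to 4), so the numbers were not taken to pair tumors.

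The fit with voom without C4 and the principal transcript lengths were chosen after seeing the data. With principal lengths the mean was 4.71 FPKM for NDUFV3, 458 for UQCRH, 17.5 for UQCRFS1, 471 for ATP5F1B, 4.14 for ATP5F1E, 0.486 for COX7A1 and 1.14 for COX6B2. Members with few fragments in C4, COX7A1, COX6A2, COX6B2 and ATP5F1E, cannot be placed against the other libraries. With 4 tumors a group, small differences in single members may be missed, and FPKM does not separate transcripts of a gene.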
